A study of Mus musculus with 18 samples.

Results

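The genes of the MHC class I presentation pathway were examined as a group of 10 named genes, chosen by name as the classical heavy chains (H2-K1 and H2-D1), the light chain (B2m), the peptide transporter and its loading partner (Tap1, Tap2 and Tapbp), the inducible proteasome subunits (Psmb8, Psmb9 and Psmb10) and their transactivator (Nlrc5). All 10 are among the 21954 genes measured by RNA sequencing of cultured mouse bone marrow derived macrophages, and all 10 are among the 12514 genes that passed the filter on low counts. The macrophages were either wild type, called control in the titles, or lacked ribosomal protein L13a by a macrophage knockout. Each genotype was left without treatment, treated with IFN or treated with the cytokine IL4, which gave 6 groups of 3 libraries, 18 in all. Libraries carry the numbers of their titles: in both genotypes numbers 1 to 3 are the untreated libraries, 4 to 6 those with IFN and 7 to 9 those with IL4. The labels name neither the type of IFN, its dose and time, the strain, sex and age of the mice, nor the driver of the knockout. Nothing in them says whether replicate libraries derive from different mice or culture dishes, so p-values measure the spread between these libraries, which may be technical.

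Total expected counts ran from 18098711 to 28477342 per library. The targeted transcript, Rpl13a, was lower in mean in the knockout groups and not absent: without treatment it measured 703 ± 73.8 CPM in wild type (counts scaled to a common library total; SD, n = 3) against 253 ± 130 CPM in knockout cells (edgeR adjusted p = 0.256). With IFN it measured 536 ± 91.3 CPM in wild type and 287 ± 123 CPM in knockout cells, and with IL4 736 ± 135 and 382 ± 204 CPM, neither past the threshold (edgeR adjusted p = 0.772 and 1.00), and the IL4 groups overlapped. Lyz2, the macrophage lysozyme, ran from 2881 to 12108 CPM in the wild type libraries and was at most 7.122 CPM in the knockout libraries. The 8 macrophage markers listed summed to between 6922 and 11291 CPM in every library. Single markers among them moved in both genotypes (edgeR adjusted p under 0.05). Fcgr1 was higher and Cd14 lower with IFN, and both were lower with IL4. Y-linked transcripts were present in wild type libraries 1, 4, 5, 7 and 8 (134.2 to 191.2 CPM in sum) and near absent in the other wild type and all knockout libraries (at most 3.191 CPM), so the wild type libraries differ among themselves in a way that the knockout libraries do not.

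Class I molecules display short peptides from proteins of the cell's own interior to CD8 T cells. The peptides are cut by proteasomes, carried into the endoplasmic reticulum by the transporter that Tap1 and Tap2 form, and loaded with the help of tapasin (Tapbp) onto a heavy chain paired with beta-2 microglobulin. Interferon is known to raise these genes together through IRF1 and through Nlrc5, which acts at a conserved promoter module (the SXY module, whose X2 and Y boxes resemble a cyclic AMP response element and a CCAAT box), and to exchange the constitutive catalytic proteasome subunits for the inducible ones.

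The promoters are shown first because they are the sequence that members share or do not share. RefSeq promoter windows on GRCm38.p6, from 250 bases before to 50 bases after a start, were found for 8 of the 10 members, with Tap2 and Nlrc5 not matched. H2-K1, H2-D1 and B2m each carry the letters TGACG, as in an X2 box, followed on the same strand by ATTGG. The latter is the reverse complement of CCAAT, as in a Y box, and the 2 starts lie 25 bases apart. The 30 bases from the first to the second are printed 5′ to 3′ along the gene's strand, with these letters in capitals.
H2-K1: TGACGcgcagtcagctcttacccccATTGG
H2-D1: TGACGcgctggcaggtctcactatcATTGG
B2m: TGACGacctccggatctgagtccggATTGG
The H2-K1 stretch lies at chr17:34000359-34000388 on the minus strand and begins 41 bases before its start. That of H2-D1 lies at chr17:35262993-35263022 on the plus strand, 101 bases before, and that of B2m at chr2:122147609-122147638 on the plus strand, 78 bases before. Of the 30 bases 23 are the same in H2-D1 as in H2-K1, and 13 are the same in B2m. This spacing was found on either strand in 31 of 32851 RefSeq windows of the same length (0.0944%), which belong to 27 genes, among them these 3 members and H2-M3. The spacing counted is that of these 3 members, so their own place among the 27 genes was fixed beforehand and is no test. The H2-D1 window lies within an annotated untranslated exon of a longer transcript in GENCODE vM21.

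The heavy chains also share a second stretch farther upstream, a kB site (the first 10 letters, in capitals) followed by an IRF core. This core (AANNGAAA) is bound by interferon regulatory factors and stands here as its reverse complement. The stretch lies at chr17:34000430-34000458 on the minus strand for H2-K1 and at chr17:35262923-35262951 on the plus strand for H2-D1. Both matches are in capitals, and 28 of the 29 bases are the same.
H2-K1: GGGGATTCCCcatctccacagTTTCACTT
H2-D1: GGGGATTCCCcatctcctcagTTTCACTT
The kB letters were found in 0.107% of all windows and the IRF core in 23.9%, counting both strands, so the core alone is common. For the light chain B2m, the IRF core, TGACG and ATTGG were found, but not the exact 10 kB letters of the heavy chains. Only this exact form of a kB site was searched, so whether B2m holds another form was not tested. The B2m stretch from 250 to 2 bases before its start (chr2:122147437-122147685, plus strand) is shown with the IRF core, TGACG and ATTGG in capitals.
B2m: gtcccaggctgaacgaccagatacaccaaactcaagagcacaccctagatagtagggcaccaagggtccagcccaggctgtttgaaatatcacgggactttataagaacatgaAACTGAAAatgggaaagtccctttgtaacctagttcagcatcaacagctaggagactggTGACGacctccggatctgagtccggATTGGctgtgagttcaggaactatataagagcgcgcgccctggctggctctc
The windows of the other members held fewer of these letters. Psmb8 alone among the 8 held TTCNNNGAA, the gamma-activated sequence of interferon-induced promoters (8.3% of all windows), and Tap1 and Psmb9 held TGACG (20.8% of all windows) and CCAAT (37.4%), the starts of this pair lying 226 bases apart on opposite strands, so that their windows share 275 bases. Psmb10 held none of these 5 motifs. Its window held 1 match to TTC and GAA with 4 bases between them, the wider form bound by the STAT protein of the IL4 pathway, a motif that was searched after the IL4 values given further on had been seen and that 6.95% of all windows hold. The stretch from 250 to 53 bases before the Psmb10 start (chr8:105938445-105938642, minus strand) is shown with that match in capitals.
Psmb10: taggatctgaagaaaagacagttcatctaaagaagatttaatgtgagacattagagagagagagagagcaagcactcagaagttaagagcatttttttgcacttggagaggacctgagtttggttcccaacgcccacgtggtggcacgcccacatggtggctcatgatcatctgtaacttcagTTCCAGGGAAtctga
No 2 matches of different motifs shared bases in a member's window. A match describes letters and does not show binding, and a motif not found says only that these letters are not in this window.

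**Figure D1:**
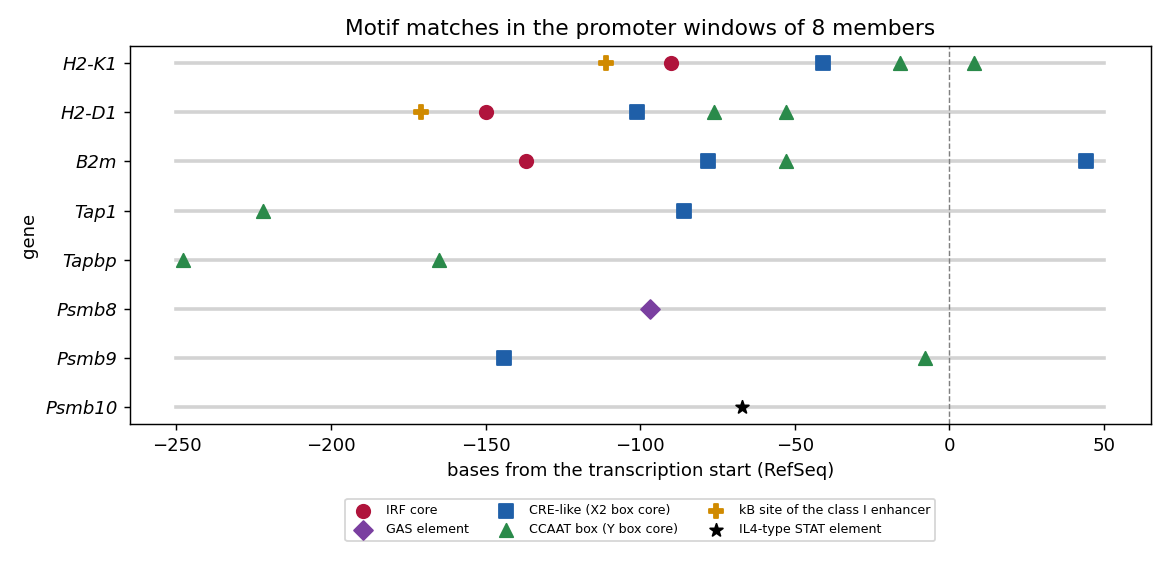
Matches to 6 motifs in the RefSeq promoter windows of 8 members, with the distance of the first base of each match from the transcription start in bases on the x axis and 1 line per gene. The kB, IRF, X2-like and Y-like matches stand in the same order in H2-K1 and H2-D1, shifted by 60 bases, and Psmb10 has a single match.

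At rest the members spanned a wide range of levels, compared here as TPM (a transcript's share of the library corrected for length, as deposited by the authors). In untreated wild type cells B2m was highest at 4007 ± 42.8 TPM (SD, n = 3), followed by H2-D1 at 1920 ± 591, H2-K1 at 1167 ± 261, Tapbp at 316 ± 9.37, Psmb8 at 199 ± 3.32 and Psmb10 at 120 ± 8.06 TPM, each above the next in all libraries. Psmb9 (58.3 ± 3.39 TPM), Tap2 (43.7 ± 11.6) and Tap1 (37.1 ± 7.55) followed, and neighbours among these 3 overlapped between libraries. Nlrc5, the transactivator, was lowest at 7.26 ± 2.45 TPM, and it stayed the lowest of the 10 in all 6 groups. The order changed little with treatment. Under IFN Tap1 stood above Tap2 and Psmb9 in both genotypes (408 ± 41.5 TPM in wild type and 450 ± 44.4 in knockout cells), although its range overlapped that of Psmb9 in wild type, and under IL4 Psmb10 moved level with Psmb8. Summed over the 10 genes, the pathway took 0.788% of all TPM in untreated wild type cells and 2.52% with IFN, and 0.973% and 3.20% in knockout cells. In bulk RNA fewer cells of a type and less RNA per cell cannot be told apart.

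IFN raised all 10 members in both genotypes. In wild type cells 10 of 10 passed the test (edgeR's quasi-likelihood test, adjusted p under 0.05), against 11.1% of all 12514 genes called higher, and in knockout cells 10 of 10, against 12.6%. The groups did not overlap for any of the 10 in either genotype, where 18.7% and 18.8% of all genes were higher without overlap. The median log2 fold change of the members was 2.49 in wild type and 2.81 in knockout cells, beside medians of -0.02 and -0.03 over all genes. The 2 responses use different libraries and are given side by side; their difference is tested further on. Differences in the size of the rise between members, stated below by their fold changes, were not tested.

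**Figure D2:**
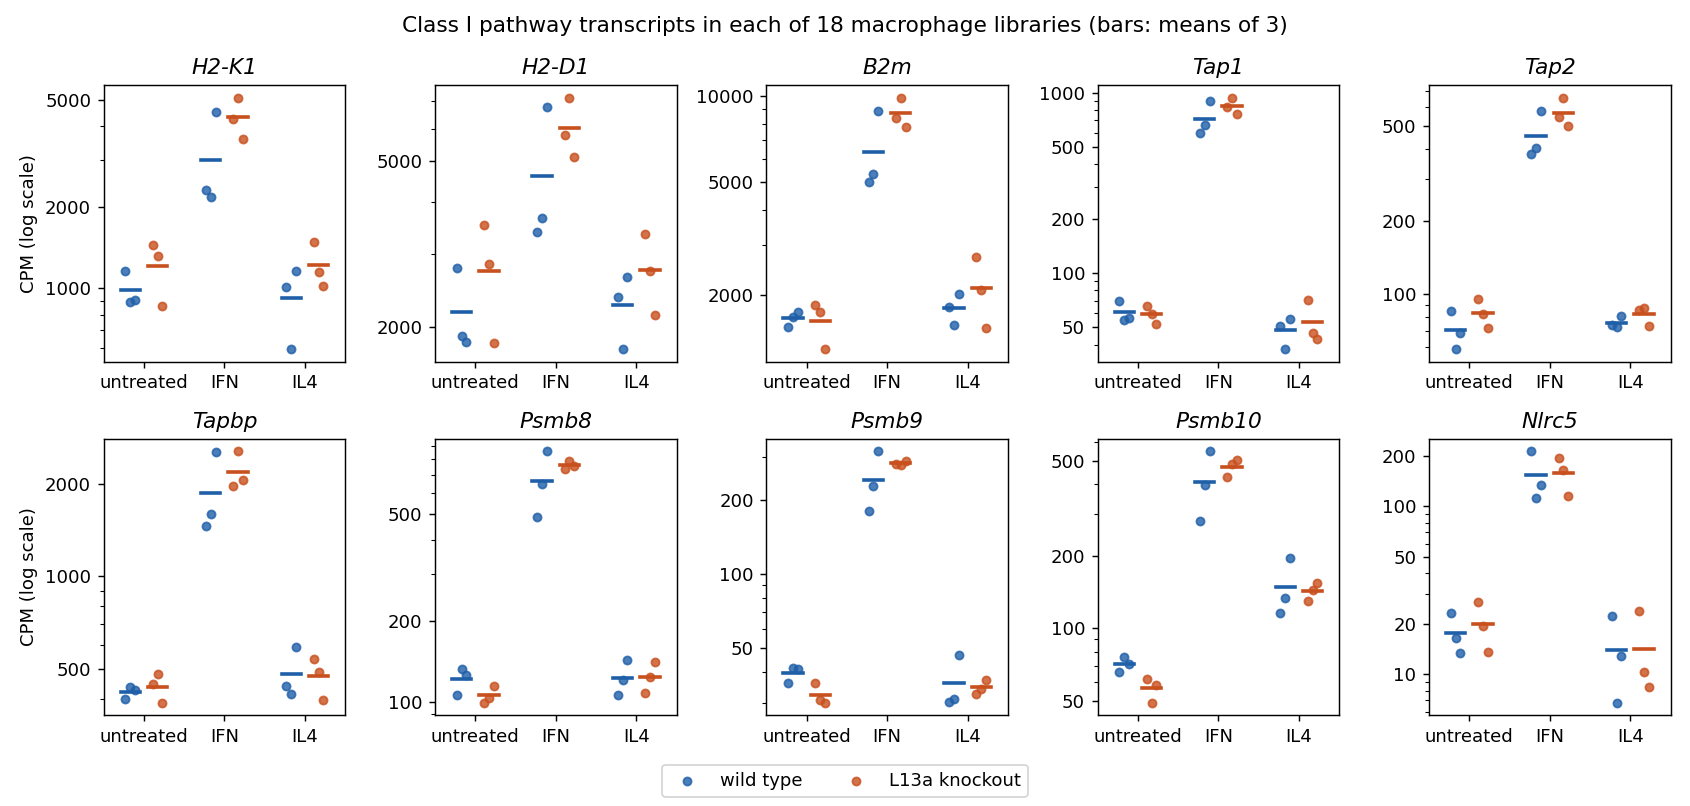
CPM of each member (log axis) in every library, by treatment, with wild type in blue and the L13a knockout in orange; points are libraries and bars the means of 3. Within each genotype all IFN libraries lie above all untreated ones in every panel, and with IL4 this holds for Psmb10 only.

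The heavy chains, which hold the peptide, rose least. H2-K1 measured 1162, 889.4 and 904.8 CPM in untreated wild type libraries 1 to 3 and 2309, 2179 and 4514 CPM in IFN libraries 4 to 6, a 3.05-fold rise (log2 fold change 1.61, SE 0.310; edgeR adjusted p = 0.00153). In knockout cells it measured 1453, 1323 and 860.7 CPM untreated and 4260, 5097 and 3588 CPM with IFN, a 3.56-fold rise (1.83, SE 0.312; edgeR adjusted p = 0.000503). Wild type library 6 was about as high as the knockout IFN libraries, while libraries 4 and 5 lay below them.

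H2-D1, the other classical heavy chain, started higher and had the smallest rise of the members. It measured 2775, 1900 and 1844 CPM in untreated and 3390, 3654 and 6757 CPM in IFN-treated wild type cells, a 2.12-fold rise (log2 1.08, SE 0.301; edgeR adjusted p = 0.0185). In knockout cells it measured 3508, 2835 and 1832 CPM untreated and 5801, 7123 and 5115 CPM with IFN, a 2.21-fold rise (log2 1.14, SE 0.301; edgeR adjusted p = 0.0124). Its call rested on single libraries. In wild type the edgeR adjusted p became 0.0766 without untreated library 2 and 0.0805 without untreated library 3, with log2 fold changes of 0.98 and 0.96 near the 1.08 of all libraries, and 0.122 without IFN library 6, with a smaller log2 fold change of 0.70. In knockout cells the edgeR adjusted p became 0.0562 without untreated library 3 (log2 fold change 0.89). Reads of H2-K1 and H2-D1 can be shared with each other and with related class I genes, and their expected counts were not whole in 18 of 18 libraries, so the division of reads among these genes is an estimate.

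B2m, the invariant light chain, rose more than either heavy chain in each genotype. It measured 1546, 1682 and 1755 CPM untreated and 4986, 5322 and 8858 CPM with IFN in wild type cells, a 3.85-fold rise (log2 1.94, SE 0.249; edgeR adjusted p = 4.06e-05). Knockout cells held 1847, 1752 and 1296 CPM untreated and 8390, 9891 and 7802 CPM with IFN, a 5.33-fold rise (log2 2.41, SE 0.253; edgeR adjusted p = 4.76e-06). The B2m gene (chr2:122147686-122153083 on GRCm38, plus strand) is overlapped along its 5398 bases by Patl2 on the other strand, and whether counting used strand is not given in the sources used here.

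Tap1, one subunit of the peptide transporter, had the largest fold rise of the 10 in both genotypes. It measured 69.9, 55.1 and 56.56 CPM untreated and 599.9, 658.2 and 893.6 CPM with IFN in wild type cells, an 11.8-fold rise (log2 3.57, SE 0.226; edgeR adjusted p = 1.84e-08). In knockout cells the values were 65.76, 59.48 and 52.39 CPM untreated and 834.3, 938.3 and 757.2 CPM with IFN, a 14.2-fold rise (log2 3.83, SE 0.228; edgeR adjusted p = 7.53e-09). By size of rise Tap1 stood at place 172 of 12514 genes in wild type and 177 in knockout cells.

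Tap2, its partner, rose less than Tap1 although the pair acts as 1 transporter. It measured 84.73, 58.65 and 68.33 CPM untreated and 383.6, 406.0 and 575.2 CPM with IFN in wild type cells, a 6.44-fold rise (log2 2.69, SE 0.186; edgeR adjusted p = 4.99e-08). Knockout cells held 94.65, 82.45 and 71.71 CPM untreated and 545.5, 656.8 and 501.9 CPM with IFN, a 6.85-fold rise (log2 2.78, SE 0.187; edgeR adjusted p = 3.20e-08). Tapbp, which bridges the transporter to the empty heavy chain, was already abundant: 400.2, 436.7 and 427.1 CPM untreated became 1461, 1589 and 2531 CPM in wild type cells (4.42-fold; log2 2.14, SE 0.214; edgeR adjusted p = 3.25e-06). In knockout cells 447.8, 481.0 and 389.4 CPM became 1960, 2547 and 2053 CPM (4.98-fold; log2 2.32, SE 0.215; edgeR adjusted p = 1.19e-06).

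The 3 inducible proteasome subunits rose by similar factors. Psmb8, which replaces Psmb5 in the immunoproteasome, went from 105.9, 132.3 and 125.3 CPM to 489.1, 647.4 and 858.9 CPM in wild type cells (5.49-fold; log2 2.46, SE 0.188; edgeR adjusted p = 1.56e-07), and from 99.04, 102.9 and 114.8 CPM to 739.7, 785.9 and 754.8 CPM in knockout cells (7.20-fold; log2 2.85, SE 0.191; edgeR adjusted p = 3.20e-08). Psmb9, which replaces Psmb6, went from 36.14, 41.39 and 41.25 CPM to 181.0, 228.3 and 315.6 CPM in wild type cells (6.10-fold; log2 2.61, SE 0.195; edgeR adjusted p = 1.17e-07), and from 36.03, 30.79 and 30 CPM to 280.0, 278.2 and 288.8 CPM in knockout cells (8.74-fold; log2 3.13, SE 0.200; edgeR adjusted p = 1.78e-08). The 3 knockout IFN libraries lay close together for both subunits, while the wild type ones were spread widely. Psmb10, which replaces Psmb7, went from 66.08, 75.82 and 71.33 CPM to 281.2, 396.7 and 547.9 CPM in wild type cells (5.75-fold; log2 2.52, SE 0.227; edgeR adjusted p = 9.98e-07), and from 61.51, 48.95 and 58.20 CPM to 427.7, 482.9 and 505.1 CPM in knockout cells (8.39-fold; log2 3.07, SE 0.232; edgeR adjusted p = 1.17e-07). Psmb8, Psmb9, Tap1 and Tap2 are neighbours on chromosome 17 (34181987 to 34216321 on GRCm38), where Psmb9 and Tap1 overlap by 212 bases on opposite strands, so a share of their reads may not be told apart. Psmb10 lies elsewhere, at chr8:105935735-105938444.

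Nlrc5, the transactivator of class I genes, was the least abundant and the most variable member. Its wild type values were 23.17, 16.41 and 13.40 CPM untreated and 212.7, 111.4 and 133.4 CPM with IFN (8.61-fold; log2 3.11, SE 0.443; edgeR adjusted p = 0.000119). Knockout values were 26.91, 19.40 and 13.65 CPM untreated and 192.7, 164.1 and 114.3 CPM with IFN (7.86-fold; log2 2.97, SE 0.440; edgeR adjusted p = 0.000144). Nlrc5 was highest in the libraries numbered 1, 4 and 7 of both genotypes, so in each of the 6 groups, a pattern seen after its values were plotted and not tested.

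**Figure D3:**
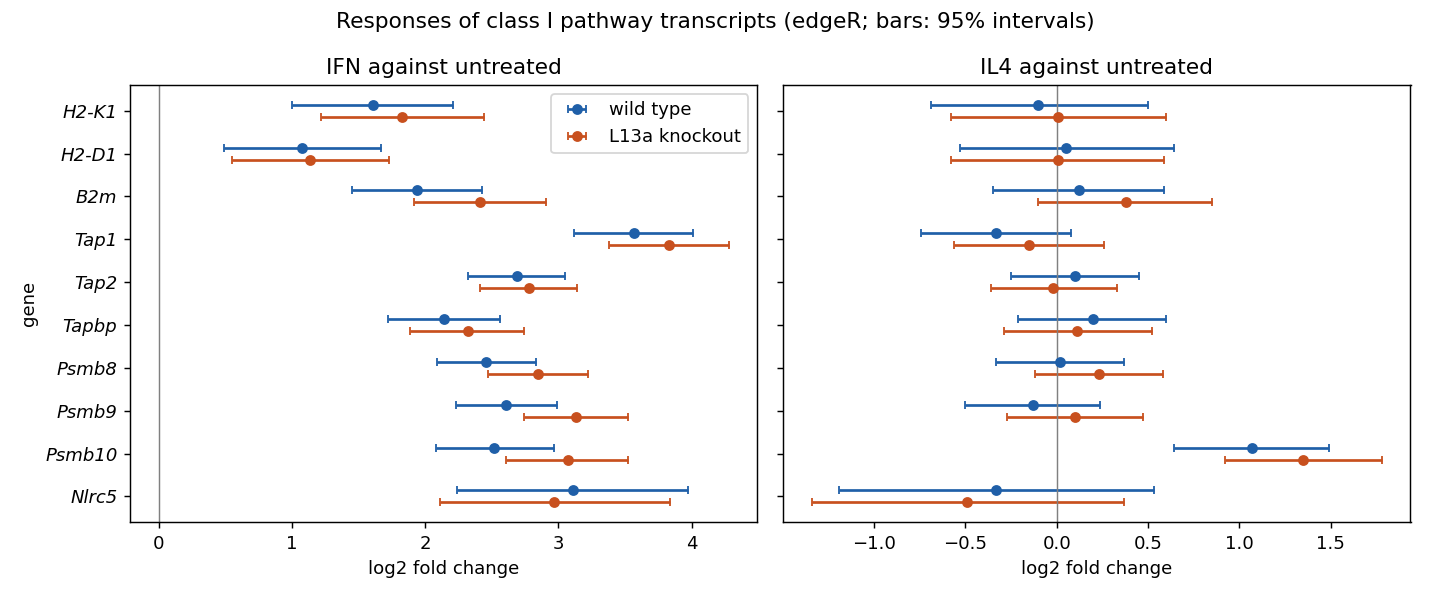
Log2 fold change of each member against untreated cells (x axis) for IFN on the left and IL4 on the right, with wild type in blue and the knockout in orange; bars are 95% intervals (normal approximation from the edgeR standard error). With IFN no bar reaches 0, Tap1 lies farthest right and H2-D1 nearest to 0; with IL4 Psmb10 alone stands clear of 0.

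Among the wild type IFN libraries number 6 was highest for 9 of 10 members, all but Nlrc5, and in wild type cells with IL4 number 9 was highest for the same 9. These 2 libraries are the ones of their groups that lack Y-linked transcripts. Between libraries that hold Y-linked transcripts (4 and 5 against 1) the wild type IFN response had a median of 2.28 (range 0.34 to 3.17), and between those that do not (6 against 2 and 3) a median of 2.82 (range 1.85 to 4.00), with 10 of 10 members above 0 in both. H2-D1 gave the lowest value in both comparisons. The part of Y-linked transcripts, or of what differs with them, in the size of the response was not tested.

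The exchange of catalytic subunits was read from the share of each inducible subunit in the TPM of its pair. Psmb8 made up 53.3%, 46.7% and 48.5% of Psmb8 plus Psmb5 in untreated wild type libraries and 85.7%, 84.7% and 83.9% with IFN. Psmb9 made up 15.9%, 17.5% and 16.7% of its pair with Psmb6 and 54.5%, 50.5% and 53.0% with IFN. Psmb10 made up 46.6%, 43.1% and 45.7% of its pair with Psmb7 and 73.0%, 70.5% and 77.0% with IFN. The constitutive partners themselves did not pass the test with IFN (log2 fold changes in wild type of 0.05 for Psmb5, 0.12 for Psmb6 and 0.67 for Psmb7; edgeR adjusted p = 0.921, 0.743 and 0.0546), although Psmb7 did not overlap between the groups, and the 3 shares rose by 35.2, 35.9 and 28.4 percentage points. In knockout cells the mean shares went from 49.8% ± 4.63 to 86.5% ± 1.98 for Psmb8, from 16.5% ± 2.57 to 56.0% ± 1.82 for Psmb9 and from 38.8% ± 6.65 to 80.5% ± 1.03 for Psmb10 (SD, n = 3). Untreated and IFN libraries did not overlap for any of the 3 shares in either genotype. The exact two-sided permutation test gave p = 0.10 for each, the smallest that 3 against 3 libraries allow, and 0.210 after adjustment over 21 comparisons, so these differences cannot reach the threshold in this design.

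**Figure D4:**
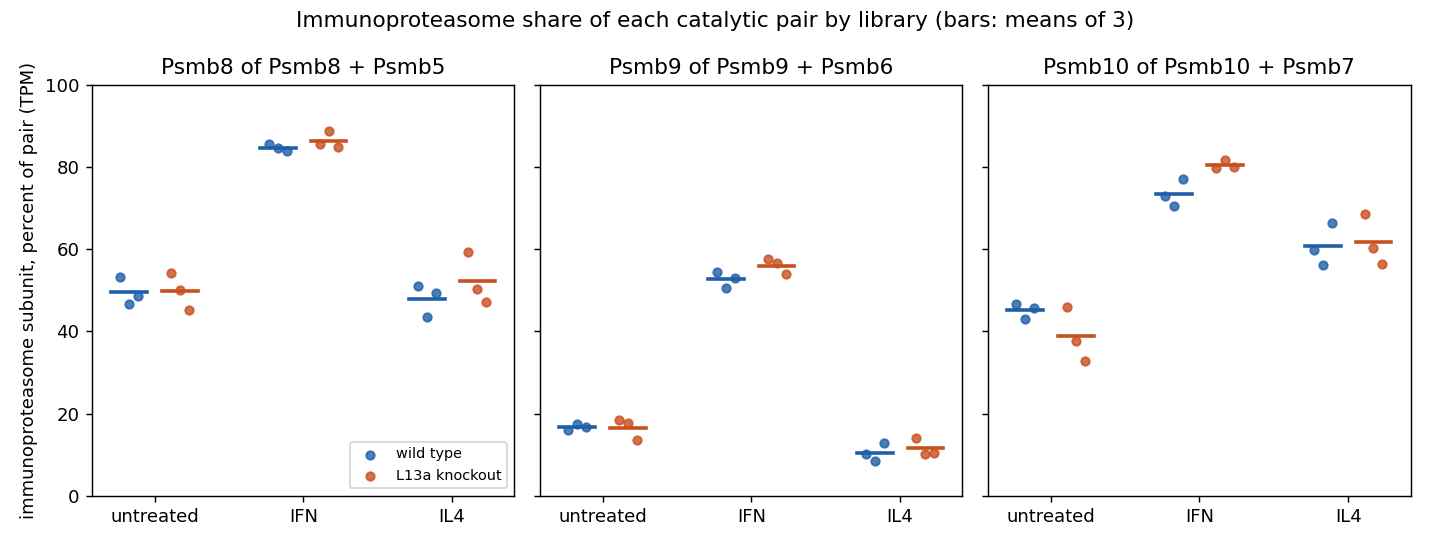
Share of each inducible proteasome subunit in the TPM of its pair (percent, y axis) by library and treatment, wild type in blue and knockout in orange, bars at means of 3. IFN libraries lie at 83.9% or more for Psmb8, 50.5% to 57.5% for Psmb9 and 70.5% to 81.7% for Psmb10, and with IL4 only the Psmb10 share lies above the untreated libraries.

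Unequal rises changed the balance within the pathway. These ratios were chosen after the values were seen, and in each of 28 comparisons the adjusted p of the exact permutation test was at least 0.165. The TPM ratio of H2-K1 to H2-D1 went from 0.617 ± 0.0486 to 0.871 ± 0.0608 with IFN in wild type and from 0.603 ± 0.0405 to 0.965 ± 0.0223 in knockout cells (SD, n = 3). B2m relative to the 2 heavy chains together went from 1.36 ± 0.321 to 2.09 ± 0.168 and from 1.06 ± 0.133 to 2.05 ± 0.104. The ratio of Tap1 to Tap2 went from 0.863 ± 0.0999 to 1.58 ± 0.0458 in wild type and from 0.734 ± 0.0402 to 1.48 ± 0.0572 in knockout cells, so that the transporter subunit with fewer transcripts at rest had more with IFN. None of these 3 ratios overlapped between untreated and IFN libraries in either genotype.

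IL4 raised 1 member. Psmb10 was the single gene of the 10 called in wild type, where 8.49% of all genes were called and 4.96% called higher, and in knockout cells, where 9.48% were called and 5.35% called higher. It went from 66.08, 75.82 and 71.33 CPM to 115.5, 133.8 and 196.8 CPM in wild type (2.09-fold; log2 1.07, SE 0.218; edgeR adjusted p = 0.00536) and from 61.51, 48.95 and 58.20 CPM to 129.9, 145.1 and 155.0 CPM in knockout cells (2.55-fold; log2 1.35, SE 0.220; edgeR adjusted p = 0.001). Its untreated and IL4 libraries did not overlap in either genotype, and it was the only member of which this was so, where 28.5% and 22% of all genes did not overlap. The Psmb10 share of its pair with Psmb7 was 59.8%, 56.1% and 66.4% in wild type and 68.6%, 60.4% and 56.4% in knockout cells, above all untreated libraries of the same genotype, and the TPM ratio of Psmb10 to Psmb8 went from 0.605 ± 0.0314 to 1.22 ± 0.152 and from 0.487 ± 0.0620 to 1.06 ± 0.0304. The other 9 members had log2 fold changes between -0.33 and 0.20 in wild type and between -0.49 and 0.38 in knockout cells, none past the threshold. Within wild type libraries with Y-linked transcripts the log2 change of Psmb10 was 0.91, and within those without them 1.42. For Tap2 the 95% interval (normal approximation from the SE) ran from -0.25 to 0.45 in wild type, and for Nlrc5, the least precise, from -1.19 to 0.53.

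The Psmb9 share moved the other way with IL4. It was 10.1%, 8.49% and 12.8% in wild type, below all untreated libraries, and 14.1%, 10.2% and 10.5% in knockout cells, where 1 library overlapped the untreated range. Psmb9 itself had log2 fold changes of -0.13 and 0.10 with IL4, while its partner Psmb6 had 0.61 in wild type (edgeR adjusted p = 0.0823) and 0.75 in knockout cells (1.69-fold; edgeR adjusted p = 0.0286). The exact permutation p of the share was 0.10 in wild type and 0.200 in knockout cells.

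Loss of L13a left no member past the threshold. In each treatment 0 of 10 members were called by edgeR, and 0 had an unadjusted p under 0.05, where 0.0799% of all genes were called in untreated cells, 0.0639% with IFN and 0.0639% with IL4; DESeq2 also called 0 of 10. The median log2 fold change of the members, knockout over wild type, was 0.02 untreated (range -0.34 to 0.33), 0.23 with IFN (range 0.04 to 0.52) and 0.07 with IL4 (range -0.06 to 0.41), beside all-gene medians of 0.01, 0.02 and 0.00. These intervals do not show that the genotypes are alike. With IFN they ran from -0.07 to 1.12 for H2-K1, from -0.03 to 0.92 for B2m and from -0.02 to 0.66 for Tap2 (95%), with edgeR adjusted p of 0.902, 0.897 and 0.897. Untreated knockout libraries lay below all wild type libraries for Psmb9 (30 to 36.03 against 36.14 to 41.39 CPM) and Psmb10 (48.95 to 61.51 against 66.08 to 75.82 CPM), where 14.1% of all genes did not overlap. In TPM both overlapped, at 46.53 to 58.26 against 54.97 to 61.74 for Psmb9 and 86.08 to 111.8 against 111.2 to 126.8 for Psmb10. The all-gene median, untreated knockout over wild type, was 0.15 on log2(TPM + 1) and 0.01 in edgeR. Knockout values thus stood higher over all genes in TPM, and the part of this in the overlap was not tested. By CPM no member was free of overlap with IFN or IL4, where 9.33% and 5.04% of all genes were.

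**Figure D5:**
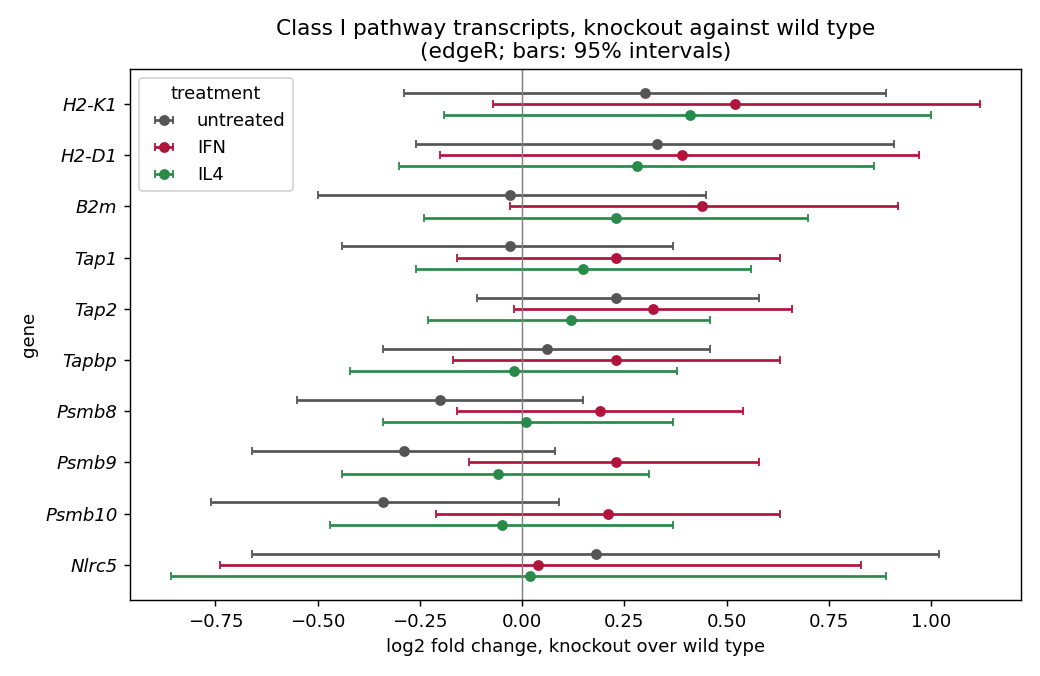
Log2 fold change of each member, knockout over wild type (x axis), in untreated (grey), IFN-treated (red) and IL4-treated (green) cells; bars are 95% intervals (normal approximation from the edgeR standard error). Every bar includes 0, and with IFN all 10 points lie to the right of it, between 0.04 and 0.52.

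All 10 members had fold changes above 0 with IFN, and these rest on 3 wild type libraries that were not alike. Libraries 4 and 5 lay below all 3 knockout IFN libraries for 9 of 10 members, and library 6 lay within the knockout range for 7 members and above it for 3. Without library 6 the median difference rose from 0.23 to 0.50, still with 0 of 10 called. Among libraries without Y-linked transcripts (3 knockout libraries against library 6) the median was -0.12, with 1 of 10 members above 0. The same comparison gave 0.05 in untreated cells (6 of 10 above 0) and -0.06 with IL4 (4 of 10 above 0). The genotype and the Y-linked transcripts cannot be told apart in full, since no knockout library holds the latter. Knockout libraries differed among themselves too. Rpl13a was highest in knockout libraries 3, 6 and 9 of their groups (400.5, 424.8 and 605.9 CPM). Within their groups these were lowest for 8, 6 and 7 of 10 members and highest for 1, 2 and 3. The part of the remaining Rpl13a in the members' values was not tested.

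The difference of the responses, tested directly as knockout minus wild type, was called for 0 of 10 members with IFN and 0 of 10 with IL4, where 0% of all genes were called in either. For IFN the median difference was 0.25 on the log2 scale, beside -0.01 over all genes. With limma on log2(TPM + 1) it was 0.01, beside -0.24 over all genes. The members ran from -0.13 for Nlrc5 to 0.54 for Psmb10 (SE 0.305; unadjusted p = 0.0933), followed by 0.52 for Psmb9 (SE 0.263; unadjusted p = 0.0663), 0.47 for B2m (SE 0.341; unadjusted p = 0.187) and 0.39 for Psmb8 (SE 0.253; unadjusted p = 0.143), each with an edgeR adjusted p of 1.00. For IL4 the median difference was 0.15 (range -0.16 to 0.28), and leaving out 1 library moved it between -0.06 (without knockout IL4 library 7) and 0.30 (without wild type IL4 library 9), so its direction was not stable. The Psmb10 share with IFN was 79.8% to 81.7% in knockout and 70.5% to 77.0% in wild type cells, without overlap (exact permutation p = 0.10, adjusted 0.210).

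Of 50 other genes listed for the pathway 48 are in the file and 45 were tested. With IFN 24 rose and 1 fell in wild type cells, and 25 rose and 3 fell in knockout cells, with medians of 0.90 and 0.93. Over all genes 11.1% and 12.6% were called higher, and 7.55% and 8.93% lower. Of the transcription regulators 7 of 14 rose in wild type: Ciita, the transactivator of MHC class II, went from 5.31 ± 1.19 to 202 ± 42.0 CPM (38.2-fold) and Irf1 from 36.4 ± 7.28 to 750 ± 70.8 CPM (20.6-fold), with edgeR adjusted p of 2.19e-06 and 6.40e-07. The subunits of the RFX complex, to which Nlrc5 and Ciita bind, behaved unequally: Rfx5 rose from 13.2 ± 2.29 to 25.7 ± 3.15 CPM (edgeR adjusted p = 0.00390), while Rfxap and Rfxank had log2 fold changes of -0.18 and 0.03 that did not pass. Tapbpl, a relative of tapasin that edits peptides, rose 10.6-fold (20.1 ± 1.83 to 214 ± 17.8 CPM; edgeR adjusted p = 1.27e-09), as 4 of 6 genes of loading and trimming did.

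The non-classical and class I like chains were spread widely in their response to IFN. Of 13 tested non-classical and class I like chains 9 rose and 1 fell in wild type, and 9 rose and 0 fell in knockout cells. The shares of all genes called higher were 11.1% and 12.6%. The 9 that rose in wild type did so by 1.87-fold (Mr1) to 9.54-fold (H2-T24), so that H2-M3 (2.61-fold) and Cd1d1 (2.79-fold) lay between H2-D1 and H2-K1. H2-T23, the chain of mouse Qa-1, went from 179 ± 45.1 to 1548 ± 509 CPM (8.66-fold; edgeR adjusted p = 8.22e-06), and H2-T24 from 9.78 ± 1.13 to 93.2 ± 40.8 CPM (edgeR adjusted p = 0.000108). H2-Q6 and H2-Q7, of the Qa-2 family, went from 2.94 ± 1.71 to 27.1 ± 20.7 CPM and from 4.72 ± 1.78 to 27.0 ± 19.1 CPM (edgeR adjusted p = 0.00157 and 0.00897). These genes are near copies of one another, so the division of reads among them is uncertain. No difference between these factors and those of H2-K1 and H2-D1 was tested.

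With IL4 5 of the 45 other genes were called in wild type and 5 in knockout cells, near the shares of 8.49% and 9.48% over all genes. Ciita went from 5.31 ± 1.19 to 26.7 ± 8.37 CPM in wild type (5.07-fold; edgeR adjusted p = 0.00486) and from 4.79 ± 3.69 to 26.9 ± 16.2 CPM in knockout cells (5.49-fold; edgeR adjusted p = 0.00360). Further calls, named after their values were seen, included higher Hfe and Irf2 and lower Irf9 in both genotypes and higher Psmb6 in knockout cells. By genotype 0 of the 45 were called in any treatment.

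Markers of dendritic cells, which also present antigen, moved with both cytokines. The 9 listed summed to 8.922 to 12.37 CPM in untreated wild type, 49.58 to 130.6 CPM with IFN and 40.41 to 63.74 CPM with IL4, and in knockout cells to 15.93 to 21.03, 53.33 to 113.1 and 52.68 to 76.59 CPM. With IFN Clec9a, Xcr1 and Batf3 rose and Cd24a fell in both genotypes, while Flt3 and Zbtb46, which define conventional dendritic cells, stayed at or under 0.773 CPM and Siglech at or under 0.311 CPM in the untreated and IFN-treated libraries. With IL4 Batf3, Cd24a and Zbtb46 rose in both genotypes. The 10 fibroblast markers summed to 528.5 to 593.9 CPM in untreated wild type and 55.27 to 105.7 CPM with IFN, with 4 of 8 tested lower, and to 61.48 to 225.9 and 24.45 to 371.3 CPM in knockout cells, with none called. Markers of B cells (at most 9.982 CPM in sum), of T and NK cells (at most 4.272 CPM, Ncr1 at 0 throughout) and of neutrophils (at most 3.167 CPM) were low in every library. The part of the dendritic cell and fibroblast markers in the rise of the members was not tested.

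Across the 18 libraries the members followed one another closely, as a description over libraries that share 3 treatments. Pearson's r of each member's log2 CPM with the mean of the other 9 ran from 0.880 for Psmb10 and 0.896 for H2-D1 to 0.994 for Tapbp. The genes outside the 10 with the pattern most like their mean, by Pearson's r among 9655 genes, were Ctsh (0.990), Cept1 (0.988), Samhd1 (0.987), Tmem67 (0.985), Tapbpl (0.985), Fbxo6 (0.984), Pla2g16 (0.984) and Casp1 (0.984). With Spearman's rho 1 of these 8 remained among the first 8. Of them Ctsh encodes a lysosomal protease, Samhd1 an enzyme that breaks down deoxynucleotides and Casp1 the protease of the inflammasome.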

How the data were processed

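Gene-level RNA-seq values of 18 libraries were used. Per the file headers the authors deposited RSEM expected counts and TPM per gene. Per the submitters' processing notes Bowtie 0.12.8, RSEM 1.2.3 and the mm10 build were used; strand setting and annotation release are not given in the sources used here. The deposited median-normalized values were not used. Of the expected counts 21.5% were not whole (tolerance 0.001) and all were rounded.

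Genes were filtered with filterByExpr (12514 kept), scaled by TMM and tested in edgeR 4.0.16 (R 4.3.3; robust quasi-likelihood fit, 1 coefficient per group, all 18 libraries; biological coefficient of variation 0.301), with Benjamini-Hochberg adjustment over all genes within a comparison and calls at 0.05. CPM are TMM-scaled. Standard errors were derived from each log2 fold change and its F statistic (the absolute change divided by the root of F). Alternatives were DESeq2 1.42.0, limma 3.58.1 on log2(TPM + 1) and log2(TPM + 0.1), other scaling, no filter, only the groups compared, Y-linked transcripts as covariate, the replicate number as block and leaving out each library; the legacy edgeR fit and values within libraries with or without Y-linked transcripts were added after seeing the data. Shares and ratios were tested by exact permutation. Positions are from GENCODE vM21 (GRCm38), promoters and starts from RefSeq (GRCm38.p6). Methods were tested on simulated data. Of 1.5-, 2- and 4-fold genotype changes put into untreated cells, 7.46%, 43.3% and 84.8% were recovered. For the difference of IFN responses these were 1.49%, 16.4% and 65.2%, so changes of 1.5-fold were mostly missed.

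The members and gene lists were chosen with earlier results of these data known. All 10 members are named. Of the other pathway genes Psmb5, Psmb6, Psmb7, Irf1, Rfx5, Rfxap and Rfxank are always named, with up to 8 of largest change among those called with IFN in wild type at a mean of at least 5 CPM, and the 8 genes most like the members' pattern. Rpl13a and Lyz2 check the labels. The values of 1 listed gene are not reported here.

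Numbers in the titles were examined as pairs of wild type and knockout libraries, by the correlation of deviations from group means across genes: 0.597, 0.0417 and 0.358 in untreated, 0.296, 0.135 and 0.276 in IFN-treated and 0.586, 0.323 and 0.449 in IL4-treated cells. All pairs with IFN and IL4 lay above a limit of 0.1, and untreated pair 2, at 0.0417, lay below it. Untreated pairs 1 and 3, at 0.597 and 0.358, lay above every IFN pair. No test stands behind this limit, so whether the numbers mark pairs was not settled. These correlations come from the data, not the labels. The main fit does not use the pairs. The replicate block, given below, uses the numbers in every treatment, untreated cells included.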

Additional observations from a re-analysis of the deposited data

How the results depend on the processing

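Over 308 alternative values of the called members 0 changed sign and 6 lost the call, all of H2-D1 with IFN: beside those given, the edgeR call in knockout cells became limma adjusted p = 0.0522 on log2(TPM + 1) and 0.0513 on log2(TPM + 0.1). Over 1122 values of uncalled members 109 changed sign and 0 gained a call. On TPM the all-gene median moved to -0.31 and -0.39 (IFN in knockout cells) and to -0.24 and -0.28 (difference of IFN responses), and the members' medians became 2.45 and 2.46, and 0.01 and 0.01. The members' median difference of IFN responses was thus 0.25 in edgeR, beside an all-gene median of -0.01. On TPM, used as deposited without TMM scaling, it was 0.01, beside all-gene medians of -0.24 and -0.28. In each it lay above the all-gene median. The cause of the lower medians on TPM was not tested. Leaving out 1 library, the median difference of IFN responses ran from 0.13 to 0.54, highest without wild type IFN library 6, and that of IL4 responses from -0.06 to 0.30. With shares of expected counts in place of TPM the Psmb8 share changed with IFN by 29.5 points in wild type and 31.6 in knockout cells, and that of Psmb9 by 40.4 and 43.3 with IFN and -8.81 and -7.74 with IL4. With Spearman's rho 1 of the 8 genes of like pattern was shared. The replicate block gave member medians of 0.01 untreated, 0.27 with IFN, 0.06 with IL4, and 0.30 and 0.17 for the differences of IFN and IL4 responses, with 0 members called. Over all genes the block raised calls by genotype from 10, 8 and 8 to 96, 24 and 27, DESeq2 gave 83, 42 and 30, the groups compared alone 1, 1 and 1, and the Y-linked covariate 39, 5 and 3. The legacy fit gave 4 in untreated cells. DESeq2 called 26 genes and 1 gene for the differences of IFN and IL4 responses, none of them members, and leaving out 1 library gave up to 9 for IFN. The groups compared alone gave 392 genes for IL4 in knockout cells in place of 1186. With limma on log2(TPM + 1) the higher share of calls fell from 58.5% to 21.5% for IFN in knockout cells, from 58.4% to 41.1% and from 56.5% to 27.0% for IL4 in wild type and knockout cells, and for genotype it went from 20% to 54.5% untreated and from 37.5% to 25% with IFN. Counts allow small differences between genotypes to be missed at 3 libraries a group.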
